A study of Mus musculus with 6 samples.

Results

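Choroid plexus epithelial nuclei were picked out of 6 single-nucleus RNA libraries from mouse brain. They were selected by their RNA. A nucleus needed 500 or more UMIs (single captured RNA molecules) and 300 or more genes, and its mitochondrial UMIs could make up no more than 5%. A member held at least 5 UMIs of Ttr and a UMI of at least 3 of 9 markers (Folr1, Kl, Otx2, Clic6, Htr2c, Kcne2, Aqp1, Sostdc1 and Enpp2), with Folr1, Clic6 or Otx2 among them. The rule found 568 members among 77421 nuclei, or 0.734%. Levels of these 10 genes therefore describe the choice and support nothing. The 5% limit likewise bounds the mitochondrial levels of members.

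All mice were on strain B6 and 9 months old, and all carried floxed human APOE. FE3 had genotype APOE3 fl/fl and FE4 had APOE4 fl/fl, and both were untreated. TAFE3_oil and TAFE3_tam added the P301S tau transgene and Cre, spelled Aldh1la1CreERT in the labels, to APOE3 fl/fl, and TAFE4_oil and TAFE4_tam added both to APOE4 fl/fl. The tau mice were given oil or tamoxifen, which switches on a Cre of this kind in the cells that make it, and Cre deletes a floxed gene. The labels give the Cre's driver only by that name. The labels name hippocampus in the titles, left hemisphere in the protocol and brain as tissue, and do not say how many animals went into a library. Each group had 1 library, so no test between animals was possible, and since each of the 5 libraries with log2 ratios of genes enters 2 pairs, the pairs are not independent. Intervals in brackets are 95% intervals for counting error only, and UMIs of 1 nucleus are not replicates. Where 6 values follow each other below, they come in library order, which is FE3 and FE4, then TAFE3 and then TAFE4, with oil before tamoxifen. TAFE and FE mice differ in tau, Cre and oil (or tamoxifen) together, and these cannot be told apart.

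The choroid plexus is a fringe of epithelium over fenestrated vessels inside the brain ventricles. Its epithelium secretes cerebrospinal fluid by moving sodium, chloride, bicarbonate and water, closes the barrier between blood and that fluid with tight junctions, and releases proteins such as transthyretin. Transthyretin, the product of Ttr, carries thyroxine and retinol-binding protein. Folr1 brings folate into the fluid, Kl is the co-receptor for a fibroblast growth factor hormone, Otx2 is a homeobox factor needed to form and keep the epithelium, and Clic6 is an intracellular chloride channel protein. Htr2c is a serotonin receptor, Kcne2 a potassium channel subunit, Aqp1 a water channel, Sostdc1 a secreted modulator of bone morphogenetic protein and Wnt signals, and Enpp2 an enzyme that makes lysophosphatidic acid.

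Some members stood apart in every library but TAFE4_oil, and the main comparisons below are therefore given with and without them. Members over 10000 UMIs numbered 28 and held 29.4% of all member UMIs, against a median of 2165.5 to 3671.5 UMIs per member in the 6 libraries. In library order they held 31.3%, 37.1%, 10.3%, 7.30%, 0% and 43.8% of member UMIs. All 28 carried at least 4 of the markers of another cell class. Single-class members, without 4 markers of any other class, numbered 332 (58.5%). No barcode was a member in more than 1 library, and 16 member barcodes also occurred among the barcodes of another library. Mitochondrial RNA split the libraries, with a median of 1.12% of UMIs per member in FE4 and 1.02% in TAFE4_tam against 1.99% to 2.63% in the other 4.

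Other classes were read from marker lists in all members. Mural markers summed to 1735 UMIs in each 1000000 (CPM) in FE3 members and 2234 in TAFE4_tam members, and to 127 and 112 CPM in the single-class members. In FE3, 1184 of the 1250 mural UMIs lay in members over 10000 UMIs. Endothelial markers were at 2619 CPM in TAFE4_tam members and 160 in its single-class members, with 897 of 1001 UMIs in members over 10000 UMIs. Microglial markers were at 192 and 212 CPM in FE3 and FE4 members and at 433 to 691 in the 4 tau libraries, below the other nuclei of the same library each time. Astrocyte markers were at 4553 CPM in FE4 members against 986 in single-class members, and between 1587 and 2491 CPM in members of the other libraries. Other nuclei had 591 to 865 CPM. Single-class members were above the other nuclei of their library, at 944 to 1571 CPM, in each library but TAFE4_oil. They are thus not free of astrocyte marker RNA. Excitatory neuron markers were lower than in other nuclei, with 957 to 2047 CPM in members and 2898 to 3449 CPM in other nuclei. Ependymal markers, of the ciliated cells that line the same ventricles, stood at 71.1 to 149 CPM in members, above the 14.4 to 23.5 CPM of other nuclei. In single-class members they were at 84.4 to 152 CPM in the libraries other than TAFE4_oil. Only 1 member held 4 of the 9.

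The share of nuclei that were members was highest in FE3 and lowest in TAFE4_oil. Members were 182 of 10948 nuclei in FE3 (1.66% [1.43, 1.92], exact Clopper-Pearson interval) and 136 of 16537 in FE4 (0.822% [0.690, 0.972]). They were 108 of 11631 in TAFE3_oil (0.929% [0.762, 1.12]) and 55 of 10817 in TAFE3_tam (0.508% [0.383, 0.661]). They were 10 of 13046 in TAFE4_oil (0.0767% [0.0368, 0.141]) and 77 of 14442 in TAFE4_tam (0.533% [0.421, 0.666]). The intervals of FE4 and TAFE3_oil overlapped, as did those of TAFE3_tam and TAFE4_tam, while TAFE4_oil lay below all others. As log2 ratios of shares, FE4 stood at -1.02 [-1.33, -0.70] to FE3, TAFE3_oil at -0.84 [-1.18, -0.50] to FE3 and TAFE4_oil at -3.42 [-4.35, -2.50] to FE4. TAFE4_oil stood at -3.60 [-4.53, -2.66] to TAFE3_oil. Tamoxifen libraries stood at -0.87 [-1.34, -0.40] to oil with APOE3 and at 2.80 [1.85, 3.75] with APOE4, and TAFE4_tam at 0.07 [-0.43, 0.57] to TAFE3_tam. With 1 library a group, a share cannot be told apart from the piece of tissue that gave the nuclei.

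**Figure D1:**
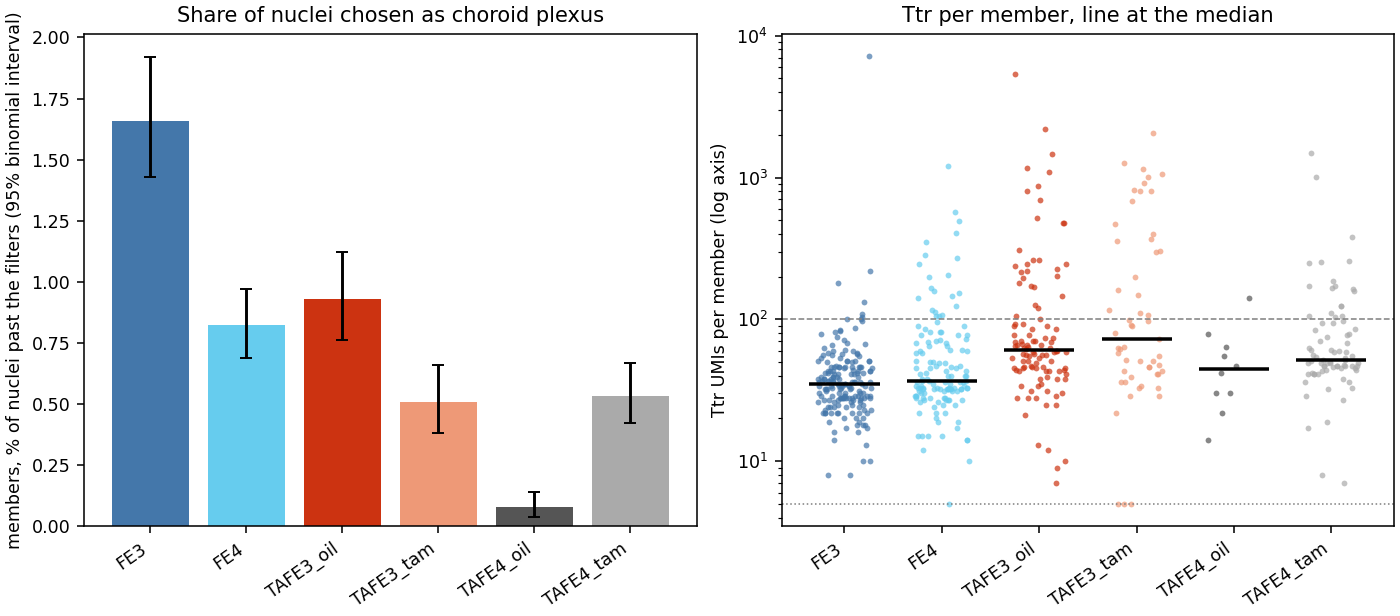
Left, members as a percentage of filtered nuclei in each library with exact binomial intervals. Right, Ttr UMIs of each member on a log axis with the median as a black line, the dashed line at 100 UMIs and the dotted line at the limit of 5. TAFE4_oil has 10 members, and the 3 other tau libraries and FE4 have more members above 100 than FE3.

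Ttr was also found outside the members. Free RNA in a droplet gives UMIs in nuclei that do not make a gene. A Ttr UMI occurred in 23.1% of the other nuclei in TAFE4_oil and in 92.3%, 78.4%, 89.0%, 80.2% and 78.1% in the 5 remaining libraries, in library order. The mean was 0.299 UMIs in TAFE4_oil and 2.98, 1.77, 2.73, 1.86 and 1.78 in these 5. Nuclei with 4 excitatory neuron markers, a class that should lack Ttr, gave 22.7% in TAFE4_oil and 79.0% to 92.5% elsewhere, at median depths of 2871 to 3300 UMIs. The library with the fewest members was thus the one with the least Ttr elsewhere. The limit of 5 Ttr UMIs lies above these means but does not grow with the depth of a nucleus. An FE3 member of 30930 UMIs held 10 Ttr UMIs, and a TAFE4_tam member of 68395 UMIs held 19. How many members passed the limit by free Ttr was not tested. Markers differed in how often neurons held them. In FE3 a UMI of Otx2 was found in 0.270% of neurons against 76.9% of members, and of Clic6 in 0.492% against 31.3%. Htr2c was found in 6.57% of FE3 neurons against 95.6% of members, and Enpp2 in 21.5% against 99.5%. Over the 6 libraries Enpp2 was found in 16.9% to 29.4% of neurons.

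Inside the limits the members were not uniform. The median Ttr count per member was 35 in FE3 (8 to 7206), 37 in FE4 (5 to 1208) and 61 in TAFE3_oil (7 to 5381). It was 73 in TAFE3_tam (5 to 2067), 44.5 in TAFE4_oil (14 to 141) and 52 in TAFE4_tam (7 to 1490). A single FE3 nucleus held 49.4% of the Ttr of FE3 members. Members with at least 100 Ttr UMIs numbered 100, and were 8 of 182 members in FE3 and 15.4% in FE4. In the tau mice they were 27.8% in TAFE3_oil, 40.0% in TAFE3_tam and 23.4% in TAFE4_tam, with 1 of 10 in TAFE4_oil. Among nuclei with 3 or more markers, Folr1, Clic6 or Otx2 among them, few lay near the Ttr limit. Of the members 10 had fewer than 10 Ttr UMIs. In FE3 9 such nuclei with 3 or more markers had 1 to 4 Ttr UMIs and 1 had none. FE3 members with 3 markers numbered 36, with a median of 10.5 further choroid plexus genes. The 24 FE3 nuclei with 2 markers, including Folr1, Clic6 or Otx2, and at least 5 Ttr UMIs had a median of 1. Their median Ttr count was 6 UMIs, so nuclei with fewer markers did lie near the limit. Nuclei with 3 or more markers and at least 5 Ttr UMIs but no Folr1, Clic6 or Otx2 fell outside the rule. They numbered 18, 9, 19, 3, 1 and 10 in library order, with medians of 9.5, 9, 8, 7, 9 and 11 further choroid plexus genes, so the rule left out nuclei that also held many of these genes.

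Genes that the rule did not use also marked these nuclei. From a list of 36 further choroid plexus genes, a member had a UMI of 11 in FE3 and FE4, 12 in TAFE3_oil, TAFE3_tam and TAFE4_tam and 12.5 in TAFE4_oil (medians). With each nucleus thinned to 500 UMIs, 4 genes were left in FE3, FE4, TAFE3_oil and TAFE4_tam, 5 in TAFE3_tam and 2.5 in TAFE4_oil, against 0 in neurons of every library. Against all other nuclei of the same library, 26 of the 26 listed genes that had at least 100 UMIs over all members were at least 2-fold higher in each of the 5 libraries other than TAFE4_oil, and their median log2 ratio was 5.17. Over all 4598 genes with that many UMIs the same held for 9.55%. Members were chosen on genes of the same epithelium, so these values describe the nuclei and are no test.

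The highest ratios outside the rule belonged to Tmem72, a membrane protein, at 167 CPM in FE3 members against 0.898 in the other nuclei. Members of the next libraries were at 114, 220, 201, 148 (6 UMIs) and 170 CPM, and its log2 ratio to other nuclei was 7.54 to 9.45 in the 5 libraries with ratios. Otx2os1, a transcript from the Otx2 locus, stood at 135, 89.7, 113, 82.4, 74.0 and 73.3 CPM in the same order. Slc16a8, a lactate transporter, stood at 440, 271, 454, 376, 271 and 264 CPM, against 0.501 to 2.99 in other nuclei. Col9a3, a chain of type IX collagen, was the most abundant gene outside the rule among the 20 with the highest ratios, with 4180, 2810, 4254, 4348, 3182 and 2988 CPM against 39.8 to 57.4 in other nuclei. Col4a3 and Col4a4, chains of the type IV collagen of basement membranes, and the sodium bicarbonate cotransporter Slc4a5 were among these 20 too. Ccdc114 and Ttc21a, parts of cilia, and the homeobox factor Msx1 were as well.

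**Figure D2:**
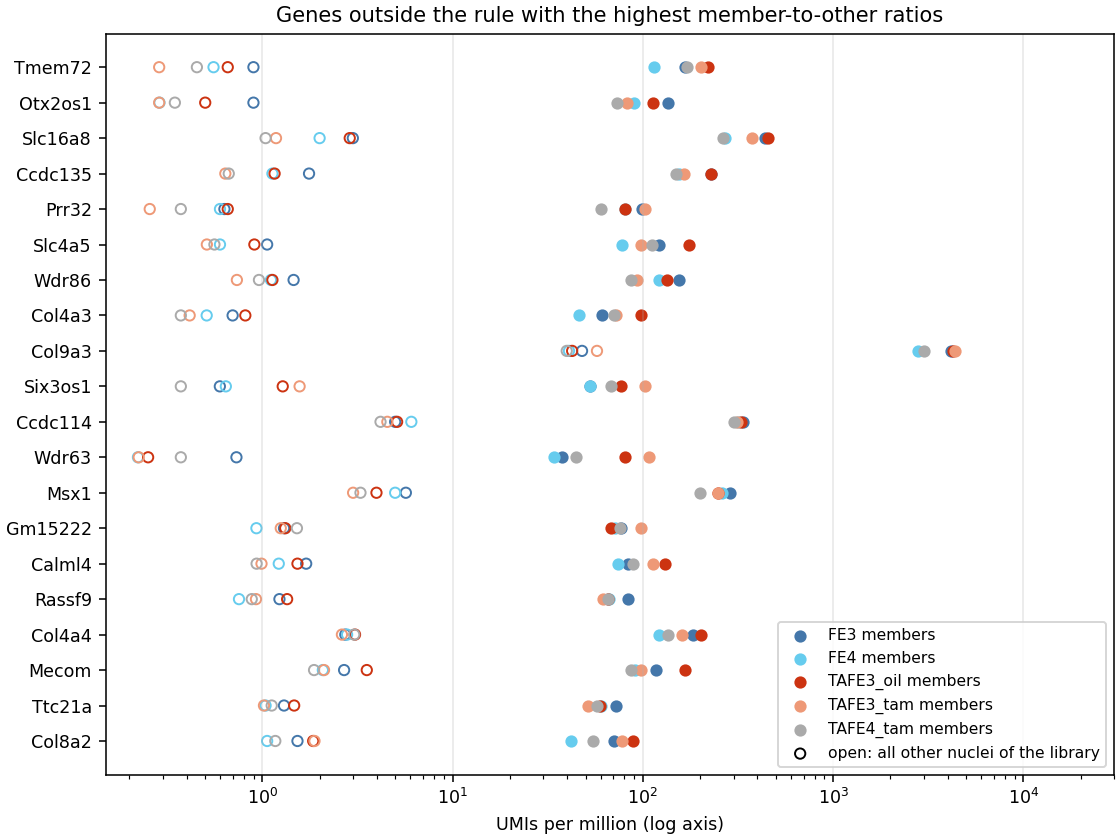
CPM on a log axis for the 20 genes outside the rule with the highest ratios, in members (filled) and in all other nuclei (open) of 5 libraries. For every gene shown the filled points lie to the right of the open ones, and Col9a3 is at 2810 to 4348 in members.

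Otx2 binds DNA with the letters TAATCC, and the start regions of the listed genes were searched for these letters to show what such stretches look like. The RefSeq promoter table (GRCm38.p6) had entries for 32 of the 36 further choroid plexus genes. In the 250 bases before the start, TAATCC or its reverse complement GGATTA occurred in 5 of the 32 genes (15.6%), against 7.21% of 27025 genes in the table. Of the 20 genes with the highest ratios 15 had entries, and 1 of these held the letters (6.67%). A match is only letters in a window. The 60 bases around the match are given with the match in capitals, for carbonic anhydrase Car14, angiotensin-converting enzyme Ace, the retinoid transporter Abca4, the membrane-type protein Mfrp and Vat1l.
Car14, chr3:95904714-95904773, minus strand: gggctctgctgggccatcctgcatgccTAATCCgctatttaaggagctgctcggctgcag
Ace, chr11:105967888-105967947, plus strand: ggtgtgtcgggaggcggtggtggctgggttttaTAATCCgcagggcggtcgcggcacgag
Abca4, chr3:122044375-122044434, plus strand: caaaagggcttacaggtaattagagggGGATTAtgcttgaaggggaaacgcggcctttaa
Mfrp, chr9:44101609-44101668, plus strand: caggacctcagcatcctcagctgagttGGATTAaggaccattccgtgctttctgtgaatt
Vat1l, chr8:114205534-114205593, plus strand: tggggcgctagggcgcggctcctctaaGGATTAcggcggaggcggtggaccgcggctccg
Of these genes Car14 was at 192, 195, 187, 92.7, 74.0 and 157 CPM in library order. Mfrp was scarce, with 16 UMIs in all members.

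Genes of fluid secretion were read as a list of 44, of which 31 had at least 100 UMIs and 16 of those were at least 2-fold higher than in other nuclei in each of 5 libraries. Slc12a2, the sodium, potassium and chloride cotransporter of the ventricular face, stood at 215, 158, 317, 371, 247 and 186 CPM in library order. Slc4a2, the anion exchanger of the blood-facing side, stood at 282, 190, 398, 314, 173 and 238 CPM. Kcnj13, a potassium channel, stood at 247, 176, 377, 299, 247 and 217 CPM, against 13.3 to 18.9 in other nuclei. Stk39, a kinase that acts on Slc12a2, stood at 536, 404, 697, 634, 518 and 526 CPM. Members thus carried the transporters of both faces in all 6 libraries. In all members FE4 was the lowest library for Slc12a2, Kcnj13 and Stk39, with log2 ratios to FE3 of -0.45, -0.49 and -0.41. In single-class members these ratios were 0.11 [-0.45, 0.66], 0.39 [-0.11, 0.89] and -0.01 [-0.32, 0.30]. Atp1b1, a subunit of the sodium pump, was not set apart, with a log2 ratio of -0.20 to other nuclei over all members. Aqp4, the water channel of astrocytes, was at 605 CPM in FE4 members and at 12.2 in its single-class members.

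Barrier and secretion genes were next. Of 39 solute carriers and barrier transporters 22 had at least 100 UMIs and 11 of these were 2-fold higher in all 5 libraries, among them Slco1c1, a thyroxine transporter, at 150 to 259 CPM in the 6 libraries. Of 45 secreted proteins and receptors 15 of 29 with at least 100 UMIs were 2-fold higher in all 5. Igfbp2, a binding protein of insulin-like growth factors, stood at 332, 305, 564, 592, 321 and 557 CPM in library order, and Prlr, the prolactin receptor, at 414, 238, 552, 407, 395 and 249 CPM. Of 35 genes of junctions and polarity 6 of 14 were 2-fold higher in all 5, among them Krt18, a keratin of simple epithelia, at 88.2 to 231 CPM, Cgnl1, a tight junction linker, at 49.3 to 206 CPM and Ezr, a microvillus protein, at 147 to 395 CPM. Of 30 motile cilia genes 6 of 7 were 2-fold higher in all 5. Genes of each of these roles were thus among those that set the members apart, beside the 9.55% of all genes.

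Position genes of the hindbrain were not seen. The plexus of the fourth ventricle carries Hox genes, which those of the more forward ventricles lack. All 39 Hox genes had 0 UMIs in the 2320996 UMIs of the members, which allows up to 1.29 CPM, and 134 UMIs in other nuclei, or 0.627 CPM. A level such as that of the other nuclei was not detectable at this depth. Msx1 was at 123 to 286 CPM, and Foxj1, the master factor of motile cilia, at 93.0, 58.8, 44.5, 67.0, 49.3 and 62.8 CPM in library order, against 2.17 to 3.29 in other nuclei.

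Human APOE, the floxed gene, encodes an apolipoprotein that astrocytes make in quantity. In members it stood at 2882 [2759, 3008] CPM in FE3, 7283 [7076, 7494] in FE4 and 4180 [3965, 4404] in TAFE3_oil. TAFE3_tam was at 1684 [1507, 1877], TAFE4_oil at 4638 [3998, 5350] and TAFE4_tam at 2284 [2135, 2441] CPM. In single-class members the levels were 1835 [1647, 2038], 1722 [1527, 1934], 2750 [2468, 3054], 1275 [1064, 1516], 3610 [1922, 6173] (13 UMIs) and 1200 [1016, 1409] CPM in the same order. FE4 was the highest library in all members and lay within the interval of FE3 in single-class members, and the tamoxifen libraries were the lowest in both sets. Neurons, read as 4 of 10 excitatory markers, had 836, 559, 1168, 640, 1772 and 709 CPM, and nuclei with 4 astrocyte markers 10749, 11144, 14502, 4410, 17464 and 4352 CPM. Single-class members lay between the neuron and astrocyte values in each library.

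Between TAFE3_tam and TAFE3_oil the log2 ratio of APOE in members was -1.31 [-1.49, -1.14], and -1.11 [-1.41, -0.81] in single-class members. In the astrocyte gate it was -1.72 [-1.77, -1.66] and in neurons -0.87 [-0.90, -0.84]. TAFE4_tam could not be set against TAFE4_oil in members, since ratios were taken only with 20 members in each library. FE4 against FE3 gave 1.34 [1.26, 1.41] in all and -0.09 [-0.32, 0.14] in single-class members, beside astrocyte markers at 4553 and 1941 CPM in the members of these libraries. How much of the members' APOE is free RNA of other cells was not tested. Mouse Apoe, whose UMIs could hold reads of the human gene, stood at 288 to 821 CPM in members.

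**Figure D3:**
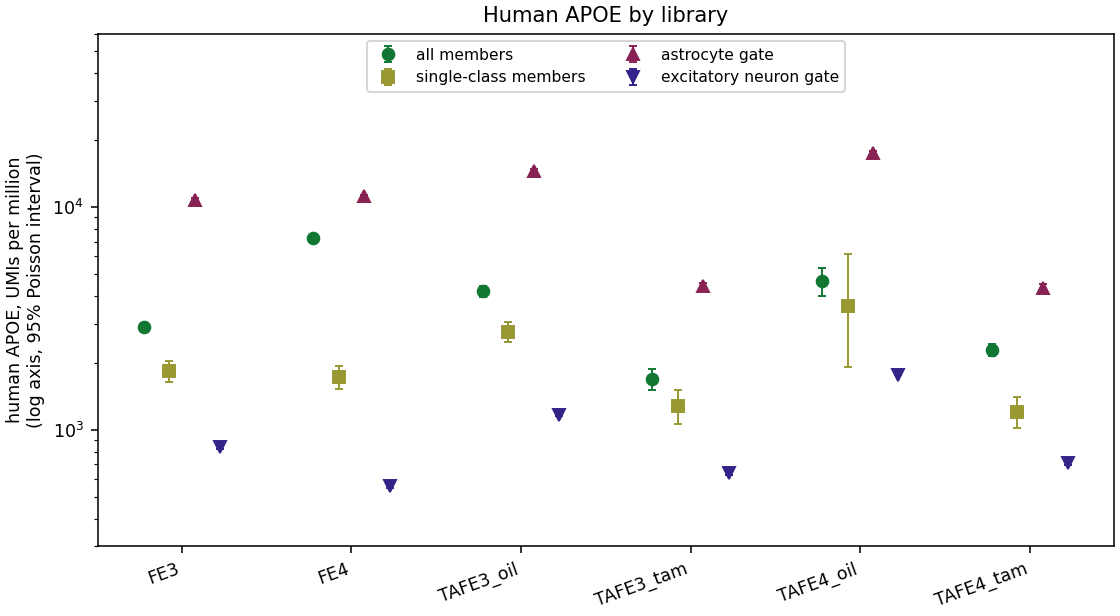
Human APOE on a log axis in all members, single-class members, nuclei with astrocyte markers and nuclei with excitatory neuron markers, with exact Poisson intervals. Members lie between neurons and astrocytes, and the tamoxifen libraries are at 1684 and 2284 in members and 4410 and 4352 in astrocytes.

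Tau mice were compared with FE mice to ask what the epithelium shows where tau, Cre and oil come together. TAFE3_oil was set against FE3. TAFE4_oil had too few members, so TAFE4_tam was set against FE4, a pair that differs in tamoxifen too. Past 2-fold were 916 of 8516 genes in the first pair (10.8%, 247 higher and 669 lower) and 1549 of 8477 in the other (18.3%, 994 higher and 555 lower). A gene was used if the 2 libraries gave 20 or more UMIs together and one of them reached 20 CPM. Single-class members gave 167 higher and 315 lower of 3172, and 153 higher and 145 lower of 2777. Members up to 10000 UMIs gave 428 higher and 443 lower of 7150, and 449 higher and 287 lower of 5853. The excess of lower genes in TAFE3_oil against FE3 was thus nearly gone without the largest nuclei but stayed in single-class members. The excess of higher genes in TAFE4_tam against FE4 was nearly gone in single-class members but stayed without the largest nuclei.

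Nuclear genes of oxidative phosphorylation, which code for the respiratory chain of mitochondria, were higher in both pairs. Summed over 76 genes they stood at 11213 [10970, 11460] CPM in FE3, 8866 [8638, 9099] in FE4 and 14095 [13697, 14502] in TAFE3_oil. TAFE3_tam was at 14078 [13555, 14616], TAFE4_oil at 8683 [7800, 9639] and TAFE4_tam at 15867 [15470, 16271] CPM. The 3 tau libraries with 20 or more members were above both FE libraries, and the 10 nuclei of TAFE4_oil were level with FE4. Of 75 genes used 62 were higher and 13 lower in TAFE3_oil against FE3, with a median of 0.34 where all genes had -0.11, and 4 were past 2-fold. In TAFE4_tam against FE4 72 were higher and 2 lower, with a median of 0.83 where all genes had 0.10, and 21 were past 2-fold. In single-class members the medians were 0.58 (65 higher, 4 lower) and 0.40 (46 higher, 13 lower). In nuclei with astrocyte markers the same medians were 0.36 and 0.53, and in neurons 0.04 and 0.51. Ribosomal protein genes, which code for parts of the ribosome, had -0.31 (12 higher, 69 lower) in TAFE3_oil against FE3 and 1.57 (82 higher, 0 lower) in TAFE4_tam against FE4. In single-class members they had 0.01 (39 higher, 39 lower) and 0.32 (49 higher, 23 lower), and in members up to 10000 UMIs 0.30 and 0.75. In TAFE4_tam against FE4 ribosomal genes thus moved with the respiratory chain genes, and further in all members. The part of such a wider shift in the ratios of the respiratory chain genes was not tested.

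Single genes of the chain differed in how far they moved. Cox4i1, a subunit of cytochrome c oxidase, stood at 491, 396, 801, 762, 493 and 735 CPM in library order. Its log2 ratio was 0.70 [0.47, 0.94] in TAFE3_oil against FE3 and in single-class members 0.94 [0.50, 1.39]. Ndufb11, of complex I, stood at 137, 127, 285, 268, 98.7 and 238 CPM, with a ratio of 1.05 [0.63, 1.47] in TAFE3_oil against FE3. Both genes were higher in TAFE3_oil, TAFE3_tam and TAFE4_tam than in either FE library. Uqcrc2, of complex III, had 1.58 [0.93, 2.25] in TAFE3_oil against FE3 but 0.10 [-0.57, 0.76] in TAFE4_tam against FE4. Ndufs5, of complex I, had 0.51 [-0.00, 1.02] and 1.59 [1.10, 2.10] in these pairs. Of the 13 genes encoded in mitochondria 0 were higher and 13 lower in TAFE3_oil against FE3, with a median of -0.33. In TAFE4_tam against FE4 their median was 0.02. Members were chosen under a limit on mitochondrial UMIs, which bounds these levels. The values therefore cannot show whether the mitochondrial genes followed the nuclear genes of the chain.

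Inside a library the respiratory chain genes were also set beside Ttr. Ttr is a gene of the rule, so what follows describes the members and supports nothing. Among members up to 10000 UMIs, and as CPM of the UMIs other than Ttr, they stood at 24754 in the 28 TAFE3_oil nuclei with at least 100 Ttr UMIs and at 9812 in the 78 with fewer. In TAFE3_tam the values were 22026 (21 nuclei) and 8495 (33), in TAFE4_tam 17585 (16) and 10809 (57), and in FE4 12881 (20) and 6692 (105). In FE3 they were 9262 (5) and 8244 (167). The log2 difference between the sets was 1.34, 1.37, 0.70, 0.94 and 0.17 in this order of libraries. Ribosomal protein genes differed by 0.71, 0.70, -0.13, 0.37 and 0.12, and the long nuclear RNAs, 6 noncoding RNAs that stay in the nucleus, by -0.51, -0.49, -0.24, -0.22 and 0.16. The ribosomal genes thus differed in the same direction as the respiratory chain genes in each of these libraries but TAFE4_tam. The split at 100 UMIs was made after seeing the data and cuts a range, with 7, 12, 8, 8, 0 and 8 members between 80 and 120 UMIs in library order. In members below 100 Ttr UMIs the sum of these genes had a log2 ratio of 0.24 [0.16, 0.32] in TAFE3_oil against FE3 and 0.68 [0.59, 0.77] in TAFE4_tam against FE4, where members up to 10000 UMIs had 0.70 [0.63, 0.76] and 0.66 [0.58, 0.74]. Below 100 Ttr UMIs, 28 nuclei were left out and 78 kept in TAFE3_oil, and 5 left out and 167 kept in FE3.

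**Figure D4:**
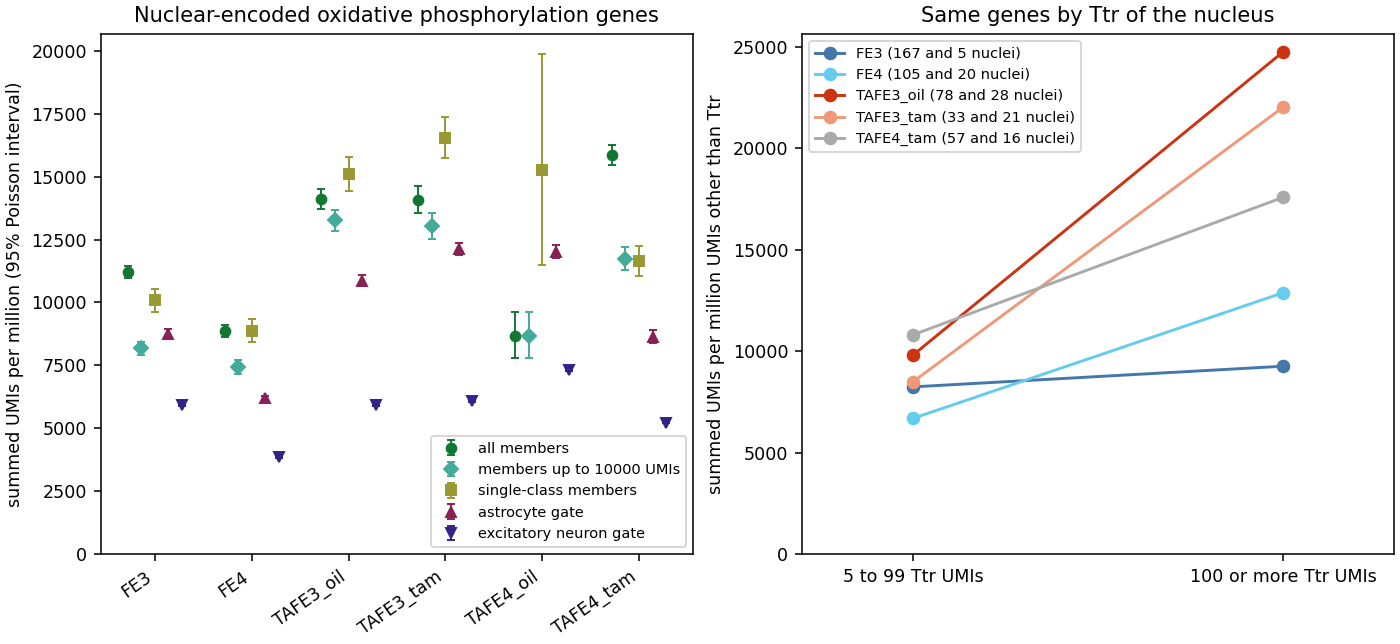
Left, summed CPM of 76 nuclear-encoded oxidative phosphorylation genes in 3 sets of members and 2 other gates, with exact Poisson intervals. Right, the same genes in members with fewer or at least 100 Ttr UMIs, as CPM of the UMIs other than Ttr. TAFE3_oil and TAFE3_tam reach 24754 and 22026, and FE3 goes from 8244 to 9262.

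Genes named for tau were those with the same direction in both pairs. Higher were Lyz2 at 2.15 [1.11, 3.28] in TAFE3_oil against FE3 and 3.90 [2.57, 5.59] in TAFE4_tam against FE4, Nqo1 at 1.34 [0.31, 2.40] and 1.34 [0.37, 2.35] and Etfb at 1.39 [0.72, 2.08] and 1.31 [0.66, 1.99]. Lyz2 is the lysozyme of macrophages and microglia, Nqo1 a quinone reductase of the oxidative stress response and Etfb a mitochondrial electron carrier. Etfb stood at 48.6, 52.6, 128, 165, 74.0 and 131 CPM in library order, with 12.7 to 20.2 CPM in other nuclei. Its single-class ratios were 1.72 [0.58, 2.96] and 1.81 [0.38, 3.45], so the difference was there in both sets of members. Nqo1 rested on 16 to 24 UMIs per library, against 1.66 to 2.61 CPM in other nuclei. Lyz2 had 12 and 5 UMIs in FE3 and FE4 and 25 and 44 in TAFE3_oil and TAFE4_tam, and in other nuclei 7.01 and 3.99 CPM in FE3 and FE4 and 28.5 to 64.9 in the tau libraries. Med28, Glrx3 and Supt4a also were higher, by 1.10 to 1.81.

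Lower in both pairs were Sox5, a transcription factor, at -1.32 [-2.34, -0.42] and -1.42 [-2.41, -0.54], and Fjx1, a secreted growth regulator, at -1.06 [-2.05, -0.18] and -2.31 [-3.31, -1.45]. Mmd2, Plk5, Echdc2 and the claudin Cldn10 stood at -1.02 to -1.66. Single-class members held 6 of 81 Mmd2 UMIs in FE3 and 8 of 118 in FE4. For Cldn10 these were 12 of 53 and 8 of 110, and for Fjx1 8 of 58 and 9 of 101. They were 14 of 64 and 15 of 59 for Sox5, 27 of 65 and 23 of 65 for Plk5, and 30 of 87 and 20 of 63 for Echdc2. Of all member UMIs they held 189646 of 720413 and 164371 of 646601. The part of other classes in these ratios was not tested. Echdc2 and Plk5 were lower in tau libraries in the other nuclei too, with 108 and 103 CPM against 59.5 and 64.4 for Echdc2 and 53.9 and 54.3 against 25.9 and 26.9 for Plk5. In single-class members these 6 genes were at -0.42 to -1.74 in both pairs, and the interval lay below 0 only for Plk5 and Echdc2 in TAFE3_oil against FE3. The further choroid plexus genes had a median of 0.52 (28 higher, 4 lower) in TAFE3_oil against FE3 and 0.26 (23 higher, 6 lower) in TAFE4_tam against FE4. In single-class members they had 0.35 (15 higher, 12 lower) and 0.31 (17 higher, 8 lower). Junction genes had 0.33 and 0.44, and in single-class members 0.46 (11 higher, 0 lower) and 0.25 (7 higher, 5 lower). Motile cilia genes had 0.36 (10 higher, 5 lower) and 0.01 (7 higher, 6 lower), and in single-class members -0.37 (3 higher, 6 lower) and -0.13 (2 higher, 6 lower). Foxj1 was at -1.06 [-1.98, -0.24] in TAFE3_oil against FE3 and at -2.04 [-3.58, -0.78] in single-class members, from 195 and 47.4 CPM. In TAFE4_tam against FE4 it was at 0.10 [-0.71, 0.87] and -0.30 [-1.42, 0.77].

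Immune genes had different values in the sets of members. In TAFE4_tam against FE4, MHC class I genes, which present peptides to T cells, had a median of 2.11 (14 higher, 0 lower), interferon response genes 1.71 (27 higher, 1 lower) and complement genes 1.69 (9 higher, 0 lower). In single-class members these were 0.33 (4 higher, 1 lower), 0.21 (3 higher, 1 lower) and 0.58 (2 higher, 1 lower), with fewer genes left. Members up to 10000 UMIs had 1.77 (7 higher, 0 lower) for MHC class I and 0.86 (7 higher, 1 lower) for interferon genes. Summed, MHC class I genes had 0.86 [0.53, 1.19] in single-class members. In nuclei with astrocyte markers the medians of these 2 lists were 1.99 and 2.49, and in neurons 0.84 and 1.00. H2-D1, a class I heavy chain, stood at 113 CPM in FE4 and 539 in TAFE4_tam members, and at 54.8 and 184 CPM in the single-class ones, a ratio of 1.75 [0.58, 3.05]. H2-K1, another heavy chain, had 2.30 [1.90, 2.72] and 1.45 [0.41, 2.58]. Both heavy chains were thus higher in single-class members too, on 9 to 25 UMIs, while endothelial markers ran at 2619 CPM in TAFE4_tam members and 221 in FE4. In TAFE3_oil against FE3 the medians were -0.10 for MHC class I and -0.10 for interferon genes, and 0.74 and -0.06 in single-class members. Members up to 10000 UMIs had 0.57 and -0.10, nuclei with astrocyte markers 0.79 and 1.73, and neurons 0.63 and 0.23. Summed in all members, the 2 lists had 0.04 [-0.12, 0.20] and 0.25 [0.10, 0.40]. C1qa, of the first complement component and made by microglia, stood at 41.6 and 43.3 CPM in FE3 and FE4 members and 202 and 230 in TAFE3_oil and TAFE4_tam, beside 55.7 CPM in other nuclei of FE3, 275 in TAFE3_oil and 331 in TAFE4_tam.

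APOE4 was compared with APOE3 in FE4 against FE3, both without tau, and in TAFE4_tam against TAFE3_tam, both with tau and tamoxifen. Under the 5% limit FE4 and TAFE4_tam are also the libraries with low mitochondrial RNA, and APOE4 and that difference cannot be told apart here. Past 2-fold were 720 of 8887 genes (8.10%, 248 higher and 472 lower) and 1074 of 5858 (18.3%, 859 higher and 215 lower). Single-class members gave 102 higher and 227 lower of 3521, and 163 higher and 103 lower of 2033. Circadian clock genes had a median of 0.40 (15 higher, 3 lower) and 0.55 (13 higher, 0 lower), where all genes had -0.16 and 0.10, and 2 were past 2-fold higher in each pair. Clock, an activator of the core loop, was past 2-fold lower in FE4 against FE3, at -1.17 [-2.56, 0.08] from 8 and 20 UMIs. In single-class members they had 0.33 (8 higher, 1 lower) and 0.52 (5 higher, 0 lower). In nuclei with astrocyte markers the medians were 0.11 and 0.04, and in neurons -0.07 and 0.19.

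The summed clock genes stood at 1140 [1063, 1220] CPM in FE3, 1525 [1431, 1623] in FE4 and 1021 [916, 1134] in TAFE3_oil. TAFE3_tam was at 958 [825, 1106], TAFE4_oil at 814 [560, 1143] and TAFE4_tam at 1428 [1311, 1553] CPM. FE4 and TAFE4_tam were thus above the 3 APOE3 libraries, and TAFE4_oil, with 10 nuclei, was not. Dbp, an activator that follows the clock, stood at 72.2, 153, 59.3, 103, 24.7 and 139 CPM in library order. Its ratio was 1.08 [0.59, 1.60] in FE4 against FE3 and 1.39 [0.47, 2.37] in single-class members, and 0.43 [-0.34, 1.25] in TAFE4_tam against TAFE3_tam. Tef, a relative of Dbp, had 0.73 [0.34, 1.12] in FE4 against FE3, 0.93 [0.24, 1.65] in single-class members and 0.05 [-0.67, 0.80] in TAFE4_tam against TAFE3_tam. Hlf, of the same family, had 2.29 [0.96, 3.97] in TAFE4_tam against TAFE3_tam, from 48 and 5 UMIs, 0.91 [-1.22, 3.49] in single-class members and 0.64 [-0.01, 1.31] in FE4 against FE3. The repressor Nr1d1 had 0.74 [0.15, 1.34] in FE4 against FE3 and 0.85 [-0.14, 1.96] in TAFE4_tam against TAFE3_tam. Cry2, a repressor of the core loop, had -0.25 [-0.80, 0.29] and 0.76 [-0.35, 2.02]. The intervals of Dbp, Tef, Hlf, Nr1d1 and Cry2 overlapped between these pairs.

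Clock proteins bind the letters CACGTG, the E-box, and some promoters of these genes hold it. CACGTG, its own reverse complement, occurred in the 250 bases before the start in 5 of 17 clock genes found in the RefSeq table (29.4%), against 6.86% of all 27025 genes. The 2 motifs can share no more than 1 base at their ends. The stretches of 60 bases below belong to Per1, a repressor of the core loop, Tef, Ciart, another repressor, and Bhlhe41, a repressor that binds the same box, with the E-box in capitals.
Per1, chr11:69098756-69098815, plus strand: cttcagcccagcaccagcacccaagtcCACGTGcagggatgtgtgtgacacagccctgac
Tef, chr15:81802519-81802578, plus strand: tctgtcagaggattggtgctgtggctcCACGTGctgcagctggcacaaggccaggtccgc
Ciart, chr3:95882312-95882371, minus strand: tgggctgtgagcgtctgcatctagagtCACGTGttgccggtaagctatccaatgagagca
Bhlhe41, chr6:145865541-145865600, minus strand: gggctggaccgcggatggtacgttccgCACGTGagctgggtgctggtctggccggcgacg
Ciart had 16 and 6 UMIs in FE4 and FE3 and a ratio of 1.57 [0.14, 3.21], Per1 one of 0.33 [-0.33, 0.99] and Bhlhe41 one of 0.47 [-0.23, 1.18].

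Genes named for higher levels with APOE4 were Myoc, Id2, C4b, Cnp, Gfap and Mlc1, of which Gfap and Mlc1 belong to astrocytes and Cnp to oligodendrocytes. Gfap, the intermediate filament of astrocytes, had 1.74 [1.43, 2.05] in FE4 against FE3 and stood at 664 CPM in TAFE4_tam and 288 in TAFE3_tam. In single-class members it had 0.21 [-2.22, 2.63] from 4 UMIs each and -0.90 [-2.22, 0.35]. Myoc, a secreted glycoprotein, had 2.62 [2.13, 3.15] and 2.63 [1.33, 4.30] in all members and 0 UMIs in single-class members of all 4 libraries. With both counts at 3 UMIs or fewer, Myoc in both pairs and C4b in FE4 against FE3 have no ratio in single-class members. None of the other single-class intervals of the 6 genes lay above 0, and astrocyte markers were at 4553 and 2491 CPM in FE4 and TAFE4_tam members against 1941 and 1587 in FE3 and TAFE3_tam. For these 6 genes the part of nuclei with markers of another class in the ratios of all members was not tested further.

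Lower with APOE4 were Sipa1l3, F5, Abhd2, Dvl3, Prlr and Ace. Abhd2, a lipid hydrolase, had -1.35, with an interval wholly below 0, and -0.79 [-1.24, -0.34], from 351 and 138 CPM in FE3 and FE4 and 412 and 238 CPM in TAFE3_tam and TAFE4_tam. In single-class members it had -0.51 [-1.04, 0.02] and -0.64 [-1.22, -0.07]. Coagulation factor F5 had -0.83 [-1.41, -0.26] and -1.03 [-1.89, -0.18], Prlr -0.80 [-1.09, -0.51] and -0.71 [-1.16, -0.26], and Ace -0.70 [-1.38, -0.04] and -0.81 [-1.64, 0.02]. Prlr in single-class members had -0.30 [-0.76, 0.15] and -0.01 [-0.54, 0.53]. Sipa1l3 and Dvl3 stood at -0.71 to -1.17. The further choroid plexus genes as a list had -0.46 (4 higher, 26 lower) and -0.51 (4 higher, 24 lower) in all members. In single-class members they had -0.15 (7 higher, 18 lower) and -0.01 (12 higher, 13 lower). The medians were thus smaller in size there, while most genes stayed lower in FE4 against FE3. The part of other classes in these ratios was not tested. F5 and Ace were below 0 in single-class members too, at -0.26 [-1.05, 0.50] and -0.39 [-1.41, 0.62] for F5 and -1.03 [-2.20, 0.03] and -0.08 [-1.09, 0.94] for Ace, each with an interval that included 0.

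Tamoxifen against oil could be read only with APOE3, in TAFE3_tam against TAFE3_oil, where 432 of 5131 genes (8.42%) were past 2-fold, 140 higher and 292 lower. Ion and fluid transport genes had a median of -0.29 (6 higher, 29 lower) where all genes had -0.04, with 3 past 2-fold lower, and -0.12 (9 higher, 18 lower) in single-class members. Oxidative phosphorylation genes had 0.02 and the further choroid plexus genes -0.13. Higher were Cd74, the chaperone of MHC class II, at 2.24 [1.32, 3.24], and Ptgds, a prostaglandin synthase of meninges and glia, at 1.31 [1.18, 1.45], which had 0.01 [-2.32, 2.23] and 0.07 [-0.18, 0.32] in single-class members. Sys1, of Golgi trafficking, had 1.31 [0.46, 2.19] and 1.33 [0.11, 2.67] in single-class members, from 62.3 and 155 CPM. Chchd1, Itsn1 and Tmx3 were higher by 1.31 to 1.53.

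Lower with tamoxifen were Cyb561, an electron-transport protein of vesicles, at -1.66 [-2.96, -0.56] and in single-class members -1.80 [-3.56, -0.37], and Sept7, a cytoskeletal septin, at -1.71 [-2.73, -0.81] and -1.40 [-3.01, -0.03]. Cyb561 stood at 66.6, 24.7, 131, 41.2, 49.3 and 57.6 CPM in library order, so that TAFE3_oil was the high library. Ppp2r4, Ednrb, a receptor for endothelin, and Naaa, a lipid amidase, stood at -1.62 to -1.74. Myoc had -2.93 [-4.60, -1.63], from 5 and 66 UMIs, and at most 1 UMI in single-class members of either library.

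**Figure D5:**
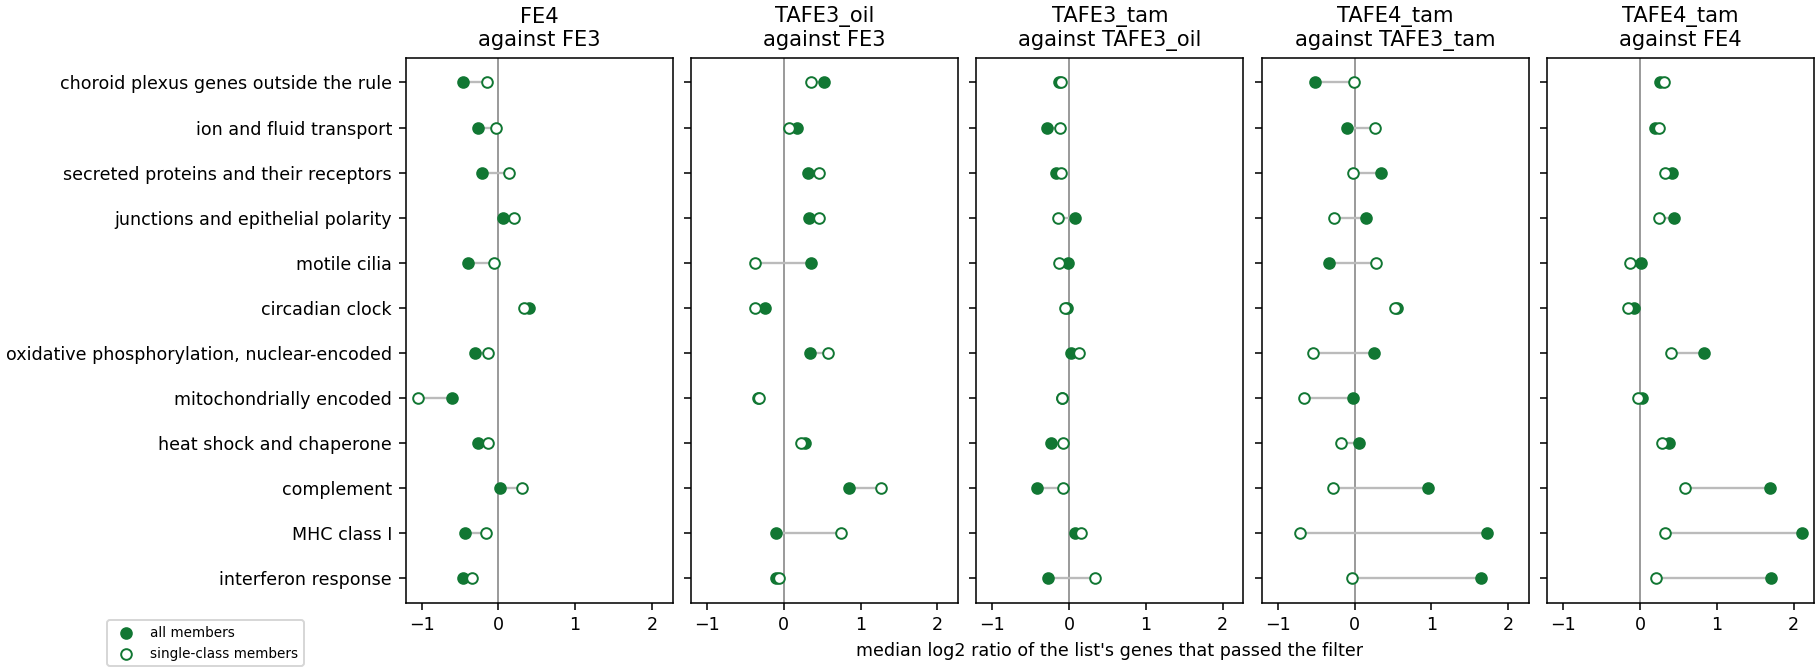
Median log2 ratio of the genes used in 12 lists for 5 pairs of libraries, in all members (filled) and single-class members (open), joined by a line. Long lines, such as MHC class I at 1.72 and -0.71 in TAFE4_tam against TAFE3_tam, mark lists whose value differed between the sets of members, and circadian clock genes at 0.55 and 0.52 in that pair show a short one.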

How the data were processed

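Nuclei from 6 libraries were measured by 10x droplet RNA sequencing. The deposited matrices hold UMI counts of 33457 features per barcode, which the authors produced using version 3.1.0 of Cell Ranger (per the file headers). The submitters' processing notes give mm10 and also name Seurat. The labels give both a 3′ end method and a 5′ kit. Barcodes numbered 14762 to 18171 a library, with 39050503 to 49083723 UMIs in all, and the members held 40538 to 720413 UMIs a library.

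Members were summed per library and scaled to 1000000 UMIs (CPM). Log2 ratios were taken between libraries with at least 20 members, for genes with at least 20 UMIs over both and 20 CPM in either, with exact conditional binomial 95% intervals and counts below 3 set to 3. No ratio was taken where both counts were 3 or fewer. Shares have exact Clopper-Pearson and levels exact Poisson intervals, and all cover counting error only. There was no model fit and no p-value. The ratio script was tested on simulated data. TAFE4_oil, with 10 members, gave no ratio in its 3 planned comparisons, and TAFE4_tam against FE4 was added after seeing the data. Single-class members carried fewer than 4 markers of each other class. Nuclei called astrocytes or neurons carried at least 4 of 10 markers. Doublets were not removed. Scrublet, run in scanpy, marked 52, 6, 9, 2, 0 and 16 members in library order (FE3, FE4, then TAFE3 and TAFE4, oil before tamoxifen). In TAFE3_oil its own threshold marked 1 nucleus, so the nuclei with the highest scores (9.49%) were marked there instead.

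The members, the 23 gene lists and the marker lists were chosen with earlier results of these data known. Named genes had at least 30 UMIs over both libraries of each pair, 50 CPM in the higher one and a level in members no lower than in other nuclei. Left out were mitochondrial, ribosomal, unnamed, sex-linked and blood genes and the genes on the marker lists of other classes. Other genes known from those classes could be named. The 6 highest and 6 lowest by the smaller ratio of the same sign in both pairs were taken. Pairs with TAFE4_oil were replaced by TAFE4_tam against FE4 and TAFE4_tam against TAFE3_tam, and tamoxifen had 1 pair. Members of the lists could be named too. Promoter sequences are from RefSeq (GRCm38.p6). Python 3.11.15, numpy 2.4.6, scipy 1.17.1, pandas 2.3.3, scanpy 1.11.5, matplotlib 3.10.9, R 4.3.3 and edgeR 4.0.16 (TMM factors only, on the counts) were used.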

Additional observations from a re-analysis of the deposited data

Results flagged for a closer look

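The share of nuclei that were choroid plexus epithelial members went opposite ways with tamoxifen in the APOE3 and APOE4 tau mice. As log2 ratios it stood at -0.87 in TAFE3_tam against TAFE3_oil and at 2.80 in TAFE4_tam against TAFE4_oil. The difference between these ratios was not tested, since each group had 1 library, and TAFE4_oil held 10 members.

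Barcodes above the mitochondrial limit, which no comparison used, also met the marker rule. They numbered 67 in FE3 and 49 in FE4. With tau and APOE3 they numbered 43 (oil) and 29 (tamoxifen), and with tau and APOE4 5 (oil) and 23 (tamoxifen).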

How the results depend on the processing

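Of 42 log2 ratios of shares under other settings 38 lay within the interval of the reported value. No paired analysis was possible because each group had 1 library. Removing nuclei with 4 markers of another class gave share ratios of -4.94 (TAFE4_oil against FE4), -5.05 (TAFE4_oil against TAFE3_oil) and 4.61 (TAFE4_tam against TAFE4_oil), and no mitochondrial limit gave -0.64 (FE4 against FE3). In the order FE4 against FE3, TAFE3_oil against FE3, TAFE3_tam against TAFE3_oil, TAFE4_tam against TAFE3_tam and TAFE4_tam against FE4, genes past 2-fold numbered 329, 482, 171, 266 and 298 without those nuclei, where fewer genes were used. They numbered 200, 267, 46, 297 and 647 with at least 50 UMIs, which also leaves fewer genes. TAFE4_tam against TAFE3_tam had 662 with at least 4 of 9 markers and 10 Ttr UMIs, and without nuclei over 10000 UMIs, a setting chosen after seeing the data, it had 394 and TAFE4_tam against FE4 had 736.

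Human APOE depended most on the members. FE4 against FE3 gave 1.05 with no mitochondrial limit, 1.17 with stricter markers, -0.09 in single-class members, 1.16 without nuclei marked by scrublet, 0.27 without nuclei over 10000 UMIs, 1.48 with TMM factors and 0.41 with each nucleus weighted equally, also chosen after seeing the data. TAFE3_oil against FE3 gave 0.28 without scrublet's nuclei and 0.35 without nuclei over 10000 UMIs. TAFE3_tam against TAFE3_oil gave -1.11 in single-class members, -1.01 without nuclei over 10000 UMIs and -1.05 with equal weights. TAFE4_tam against TAFE3_tam gave -0.33 with stricter markers, -0.09 in single-class members, -0.03 without nuclei over 10000 UMIs and -0.26 with equal weights. TAFE4_tam against FE4 gave -1.45 with no mitochondrial limit, -2.21 with stricter markers, -0.52 in single-class members, -0.96 without nuclei over 10000 UMIs, -1.87 with TMM factors and -1.16 with equal weights.

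Among list medians of 0.5 or more in size, 7 turned sign where at least 3 genes of the list could be used. Mitochondrially encoded genes had 0.37 in FE4 against FE3 with no mitochondrial limit, and the label check genes had -0.30 there in single-class members. In TAFE4_tam against TAFE3_tam single-class members gave 0.05 for the rule genes, -0.27 for iron and metal, -0.28 for complement and -0.71 for MHC class I, and members up to 10000 UMIs gave -0.23 for immediate early genes. With fewer genes, single-class members there also went from 1.64 to -0.03 for interferon response (2 genes) and from 0.78 to -1.51 for immediate early genes (1 gene). Among named genes past 2-fold 4 values turned sign. In single-class members Gfap had -0.90 in TAFE4_tam against TAFE3_tam and Mlc1 -0.64 in FE4 against FE3. Without nuclei over 10000 UMIs Gfap had -0.61 in FE4 against FE3 and Ptgds -0.33 in TAFE3_tam against TAFE3_oil. Lyz2, Myoc and C4b gave no value in 6 cases, with both counts at 3 or fewer. The cause was not tested. Of the other values 965 list medians and 438 values of named genes lay within the counting interval of the reported value (for a list, the median width of its genes' intervals), and 50 and 32 did not. Depth limits TAFE4_oil above all, with 10 members.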
